A study of Mus musculus with 9 samples.

Results

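The transcriptome of islets of Langerhans from db/db mice was compared with that of islets from their heterozygous (db/+) counterparts. The comparison used the 6 libraries whose labels give these genotypes, 3 of db/db and 3 of db/+, out of 9 in the series. The other 3 libraries are labelled wild type (WT), and entered the fit and the check on the control group. The labels name each of the 9 samples as islets of 12-week-old mice and give all of them the same strain, a BKS stock whose name carries Leprdb, the db allele of the leptin receptor gene. A db/db animal of this stock is therefore homozygous for Leprdb, and a db/+ animal has 1 copy of it. The sex of the animals, and whether islets of several animals were pooled, are not given in the labels, so p-values measure the spread between these libraries. No sample is labelled as treated.

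The db allele disrupts the long form of the leptin receptor, the form that signals through JAK2 and STAT3. Without leptin signalling in the brain the mice overeat and become obese and insulin resistant, and on the BKS background the islets fail to keep up with the demand for insulin. Beta cells, the main islet cell type, take up glucose through GLUT2, phosphorylate it and oxidise it. The rise in ATP closes potassium channels, calcium enters, and granules of insulin and amylin are released. Heterozygous mice are the usual lean control of this model, and the comparison asks which genes separate islets with 2 mutant copies from islets with 1.

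Levels are in CPM, counts scaled to a common library total with TMM factors, and are not corrected for gene length. They can be compared between libraries for a gene, not between genes. Changes of db/db against db/+ are log2 fold changes ± standard error, so that 1 is a 2-fold difference. They come from edgeR's quasi-likelihood test over 16826 tested genes with Benjamini-Hochberg adjustment, and "rose", "fell" and "passed" refer to an adjusted p under 0.05. In such bulk samples, fewer cells of a type and less RNA per cell cannot be told apart. No source used here names the counting program or its strand setting, and genes that overlap can share reads. Of the 246 genes named in the text, 100 overlap another annotated gene, and this holds for Iapp (which overlaps Slco1a5), Cox6a2 (Itgad), Slc2a2 (1700112D23Rik), Pcx (Lrfn4), Gad1 (Gad1os), C1qtnf1 (Gm11747), Cck (Gm38661) and Ddit3 (Mbd6 and Mars1). The others that overlap are Abcc8, Acvr1c, Adgre1, Adora1, Arntl, Atf5, B2m, Bach2, Cadps, Cadps2, Ccnd2, Cd44, Cdh13, Cdh5, Cdk4, Cdk6, Cela2a, Cftr, Clock, Col4a1, Csf1r, Csn3, Dbp, Dnaja1, Dusp6, Erlec1, Esm1, Fam151a, Ffar2, Fosl1, Gabbr2, Gjd2, Gnas, Gpd1, Gpd2, Hnf4a, Hspa5, Hspa8, Hspg2, Ifi27, Ifit1, Il6ra, Inhba, Inpp5f, Insig1, Jak1, Kdelr3, Lamp2, Ldha, Mgll, Mthfd1l, Muc4, Ndufa1, Nnat, Notch3, Pam, Pcsk2, Pde3a, Pde4d, Pdia6, Pdx1, Pfkfb2, Pfkfb3, Pnpla3, Ppp1r15a, Prss1, Prss2, Prss3, Ptprb, Rpl10, Scd2, Scn3a, Scn9a, Slc39a11, Slc39a9, Slc5a10, Snap25, Socs2, Spcs1, Sphkap, Spred3, Srebf1, Syt14, Tgfbr1, Tnr, Top2a, Ttr, Txnip, Uqcrh, Wipi1, Xist and Zmat3.

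The libraries of the compared groups held 8860024 to 11734886 counts, and within a group log2 levels correlated at 0.976 to 0.988 among db/db libraries and at 0.990 to 0.992 among db/+ libraries. The beta cell markers Ins1, Ins2, Pdx1, Mafa, Slc2a2 and Ucn3 were all measured in every library, as was the alpha cell hormone gene Gcg. The groups differed in more than the labelled genotype. Xist, the RNA that coats the silenced X, stood at 308, 948 and 858 CPM in db/db and 0.162, 0.506 and 0.408 CPM in db/+, whereas the Y-linked genes summed to 176, 1.11 and 0.108 CPM in db/db and 417, 373 and 407 CPM in db/+. Genes that overlap ribosomal RNA took 17.9, 13.3 and 0.0558% of the counts in the 3 db/db libraries and at most 0.0237% in db/+. The mean log2 level of the acinar genes, which mark exocrine pancreas, was 8.27, 7.07 and 7.09 in db/db and 6.62, 6.95 and 7.73 in db/+. In db/db 2 and 3 Xist was high and Y-linked counts were near 0, in db/+ the reverse held, and db/db 1 held both. In WT, Xist stood at 565, 0.722 and 596 CPM and the Y-linked sum at 219, 343 and 235 CPM, so that WT 1 and 3 held both as well. Sex-linked levels thus moved with genotype, and what is due to sex and what to genotype cannot be told apart. The Y-linked sum varied widely only among the db/db libraries, so its effect in a fit is set mainly by db/db 1 against db/db 2 and 3. Fits with this sum therefore cannot separate sex from whatever else set db/db 1 apart. All db/+ titles begin with the letter G and all db/db titles with H, and the meaning of the letters is not given. The part of these differences in single results was tested only as far as the covariate fits given below go.

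The mutated gene itself was measured at a low level. Lepr (chromosome 4, 101717137 to 101815352, GRCm38) stood at 9.47, 2.6 and 2.05 CPM in db/db and 4.37, 1.52 and 1.63 CPM in db/+. The ranges overlapped, and the difference of 0.88 ± 0.64 (adjusted p = 0.309) did not pass. Lepr passed with the Y-linked sum in the fit (adjusted p = 0.0104). The counts are per gene, so they do not separate the long receptor form, in which the db mutation acts, from the short ones. Of 46 tested genes within 5 Mb of Lepr, 45.7% passed, beside 42.4% of all autosomal genes.

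Of the 16826 genes, 6773 (40.3%) passed, with 3459 (20.6%) higher and 3314 (19.7%) lower in db/db. At least 2-fold changes were more frequent upwards: 1438 genes (8.55%) rose and 679 (4.04%) fell by that much. With library totals as the scale in place of TMM factors the split turned, and 27.6% of the genes that passed were higher instead of 51.1% (2011 higher and 5265 lower). That scaling moved the median of all genes to -0.22, from 0.01, and list counts given below for library totals are read against this shift. With the Y-linked sum in the fit as a covariate, whose effect rests mainly on db/db 1 against db/db 2 and 3, 4403 genes passed. With the title letter as a covariate, whose effect only the WT libraries can estimate, 2033 passed. The 3 db/db libraries lay outside the range of the db/+ libraries for 8782 genes (52.2%), and for 97.5% of those that passed. These shares are the background against which the gene groups below are read: a list with about 1 in 5 members higher and 1 in 5 lower does not stand out.

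**Figure D1:**
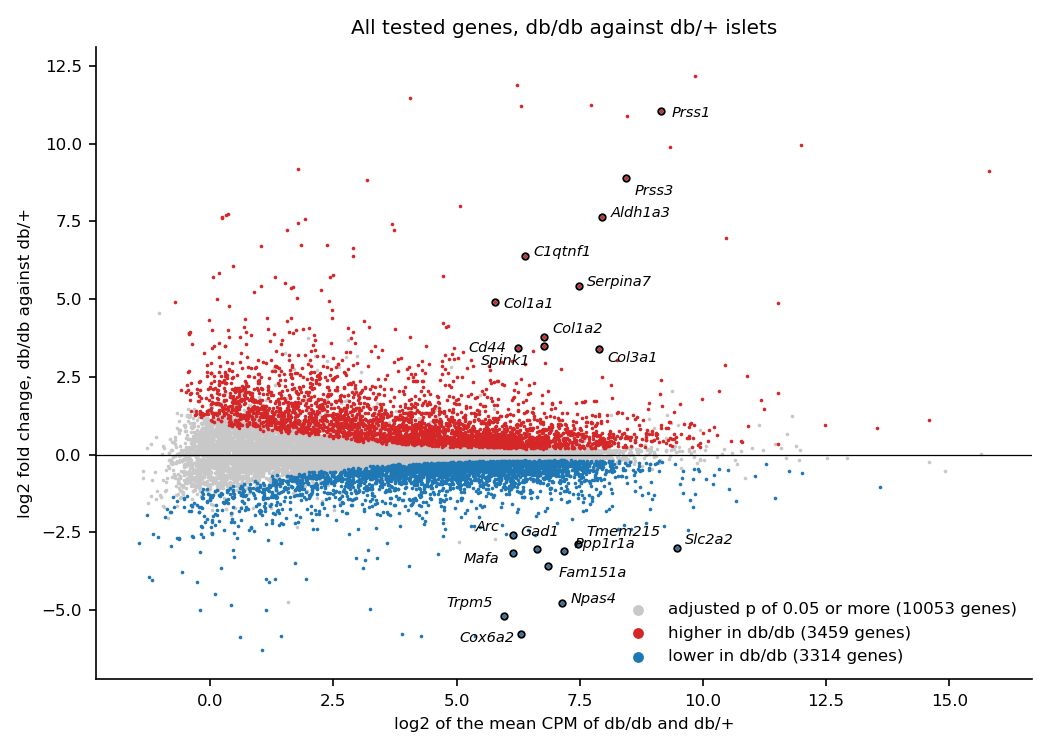
Log2 fold change of db/db against db/+ (vertical axis) against the log2 mean CPM of both groups (horizontal axis) for each of the 16826 tested genes. Red points rose (3459 genes), blue points fell (3314) and grey points did not pass, and open black circles mark the 10 highest and 10 lowest changes among genes of at least 100 CPM, leaving out predicted (Gm) and Rik symbols, sex-linked genes and genes that overlap ribosomal RNA, from Prss1 at 11.06 to Cox6a2 at -5.76.

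The insulin genes and the other granule hormones did not move together. Ins2, the major mouse insulin gene, stood at 45891, 56269 and 52610.3 CPM in db/db and 50781, 48618 and 51815 CPM in db/+, with overlapping ranges and a difference of 0.034 ± 0.14 (adjusted p = 0.872) that did not pass. Ins1, its retrotransposed copy, stood at 14437, 32683 and 29325 CPM in db/db and 39476, 33791 and 36541 CPM in db/+. All 3 db/db libraries were below the db/+ libraries, but the difference of -0.52 ± 0.29 (adjusted p = 0.197) did not pass except with the Y-linked sum in the fit, and the 2 genes are similar enough to share reads. Iapp, the amylin that is stored with insulin and forms islet amyloid in humans, stood at 29987, 33391 and 37639 CPM in db/db and 17683, 14101 and 15470.5 CPM in db/+. It rose by 1.10 ± 0.12 (adjusted p = 1.18e-05) and all db/db libraries were higher. Gcg, the glucagon gene of alpha cells, fell by 1.03 ± 0.19 (adjusted p = 0.00165), from 18650.4, 15506 and 15710.5 CPM to 7851, 8963 and 7604 CPM. Sst, the somatostatin gene of delta cells, fell by 0.48 ± 0.11 (adjusted p = 0.00356), and Ppy, the pancreatic polypeptide gene, differed by -0.31 ± 0.14 (adjusted p = 0.0908) and did not pass. Ppy passed with library totals as the scale, with no filter on low counts and without db/+ 2 (adjusted p = 0.00865, 0.0130 and 0.0393). Ghrl, encoding ghrelin, rose by 2.52 ± 0.49 (adjusted p = 0.00113), from 0.323, 0.4219 and 0.0816 CPM to 1.37, 2.11 and 1.40 CPM, a low level in either group.

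**Figure D2:**
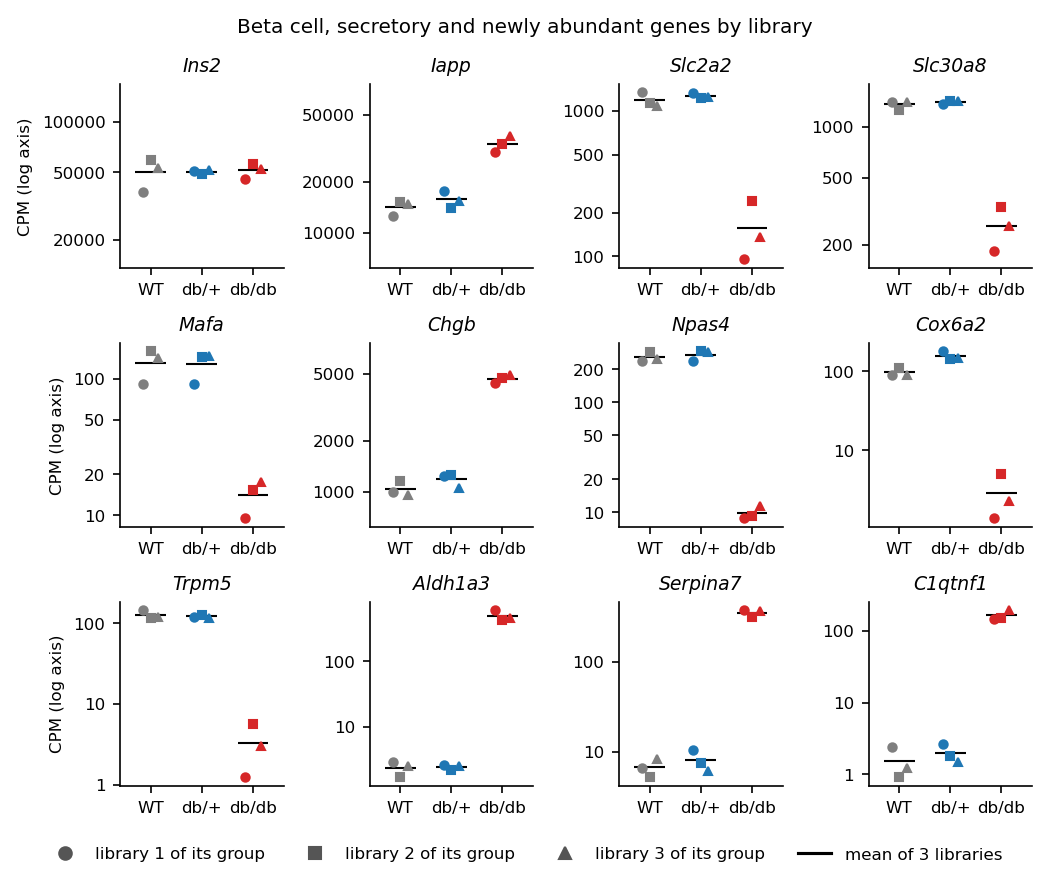
CPM on a log axis for 12 genes in WT (grey), db/+ (blue) and db/db (red); circles, squares and triangles are libraries 1, 2 and 3 of a group and the black line is the mean of 3. The db/db libraries overlap db/+ for Ins2, lie above for Iapp, Chgb, Aldh1a3, Serpina7 and C1qtnf1, and lie below for Slc2a2, Slc30a8, Mafa, Npas4, Cox6a2 and Trpm5.

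Granule proteins and the enzymes that act inside granules changed in both directions, with large rises among the granins. Of 26 tested genes for prohormone processing and granule cargo, 12 rose and 7 fell (median 0.23). The counts were 7 higher and 6 lower with the Y-linked sum in the fit. Chgb, secretogranin 1 of the granule core, stood at 4397, 4710.2 and 4913 CPM in db/db and 1247, 1252 and 1057 CPM in db/+ and rose by 1.98 ± 0.11 (adjusted p = 1.56e-08). Pam, the enzyme that amidates peptide hormones, stood at 3588, 3427 and 3666 CPM in db/db and 1135, 1046 and 983 CPM in db/+ and rose by 1.76 ± 0.089 (adjusted p = 9.70e-09). Scg3, a granin that binds cholesterol-rich granule membrane, rose by 1.46 ± 0.088 (adjusted p = 4.02e-08). For these 3 genes every db/db library exceeded every db/+ library. The convertases that cut proinsulin did not share the shift: Pcsk1 differed by -0.28 ± 0.13 (adjusted p = 0.115) and Pcsk2 by 0.15 ± 0.10 (adjusted p = 0.263), and neither passed. Pcsk1 passed with library totals as the scale, with no filter on low counts and with the Y-linked sum in the fit (adjusted p = 0.0187, 0.0262 and 0.00465) and Pcsk2 passed without db/db 1 (adjusted p = 0.0198). In the other direction, Slc30a8, the zinc transporter ZnT8 that loads granules for insulin crystals, fell by 2.44 ± 0.18 (adjusted p = 1.92e-06), from 1357, 1428 and 1417 CPM to 184, 334 and 259 CPM. Ucn3, urocortin 3 of mature beta cells, fell by 1.82 ± 0.095 (adjusted p = 1.31e-08), and Rbp4, the retinol carrier, fell by 1.33 ± 0.11 (adjusted p = 5.77e-07).

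Of 46 tested genes for exocytosis, 15 rose and 10 fell. Under other settings they were 10 higher and 19 lower with library totals as the scale, 12 higher and 14 lower with no filter on low counts and 9 higher and 10 lower with the Y-linked sum in the fit. Sytl4, granuphilin, which docks insulin granules at the membrane, stood at 63.0, 132 and 104 CPM in db/db and 535, 519.8 and 514 CPM in db/+ and fell by 2.39 ± 0.22 (adjusted p = 4.84e-05). All db/db libraries lay far below the db/+ range. Cadps, the priming factor CAPS1, fell by 0.52 ± 0.081 (adjusted p = 0.000214), while its paralogue Cadps2 rose by 1.43 ± 0.13 (adjusted p = 1.51e-06). Snap25, the SNARE on the plasma membrane, rose by 0.67 ± 0.082 (adjusted p = 2.28e-05), and the calcium sensors Syt7 and Syt5 rose by 0.43 ± 0.090 (adjusted p = 0.00202) and 1.40 ± 0.10 (adjusted p = 2.56e-07). Rab3d, a granule GTPase, rose by 1.24 ± 0.097 (adjusted p = 4.66e-07), and Syt14 fell by 0.53 ± 0.075 (adjusted p = 8.83e-05). Of these, Syt7 with library totals as the scale and with the Y-linked sum in the fit (adjusted p = 0.212 and 0.147) lost the call.

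Genes of zinc handling also changed in both directions. Among 23 tested zinc transporters and metallothioneins, 8 rose and 7 fell. Alternatives gave 6 higher and 8 lower with library totals as the scale, 6 higher and 7 lower with the Y-linked sum in the fit, 7 higher and 9 lower with the acinar mean as a covariate and 8 higher and 9 lower without db/db 1. Besides Slc30a8, the metal-binding metallothioneins Mt1 and Mt2 fell: Mt1 stood at 90.7, 96.6 and 100.0001 CPM in db/db and 249, 223 and 228 CPM in db/+ and fell by 1.28 ± 0.082 (adjusted p = 6.42e-08), and Mt2 fell by 1.69 ± 0.12 (adjusted p = 1.44e-07). The brain form Mt3 rose by 4.05 ± 0.39 (adjusted p = 3.16e-06), from 0.566, 0.4219 and 0.245 CPM to 8.64, 5.20 and 7.11 CPM. Slc39a11, a zinc importer, stood at 112, 95.6 and 116 CPM in db/db and 11.5, 16.8 and 13.0 CPM in db/+ and rose by 2.97 ± 0.13 (adjusted p = 4.01e-09), so that its groups did not come near each other, and Slc39a9 rose by 0.82 ± 0.088 (adjusted p = 7.99e-06).

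Transcription factors of the mature beta cell fell more often than they rose. Of 30 tested, 15 fell, beside 19.7% of all genes, and 5 rose, with a median of -0.36. Other choices gave 3 higher and 16 lower with the Y-linked sum in the fit. Of the 15 that fell, 12 were lowest in db/db 1, which is the lowest library for 47.6% of all genes that fell. Mafa, the activator of insulin and of maturity genes, stood at 9.47, 15.4 and 17.6 CPM in db/db and 91.9, 144 and 147 CPM in db/+ and fell by 3.16 ± 0.34 (adjusted p = 0.000369). Nkx6-1, which keeps beta cell identity, stood at 93.9, 138 and 130.4 CPM in db/db and 251, 346 and 335 CPM in db/+ and fell by 1.36 ± 0.17 (adjusted p = 0.00012). Both were lower in each db/db library than in any db/+ library, as was Neurod1, which fell by 1.02 ± 0.091 (adjusted p = 1.56e-06). Pdx1, the factor named for pancreas formation, fell by 0.87 ± 0.084 (adjusted p = 3.36e-06), and the pioneer factor Foxa2 fell by 0.84 ± 0.092 (adjusted p = 9.55e-06). Some members rose: Rfx6 rose by 0.83 ± 0.079 (adjusted p = 2.73e-06), Hnf4a rose by 0.76 ± 0.12 (adjusted p = 0.00019), and Bach2, a repressor better known from lymphocytes, rose by 2.13 ± 0.22 (adjusted p = 6.29e-06), from 2.59, 2.78 and 1.96 CPM to 12.5, 8.67 and 10.99 CPM. Hnf4a did not pass with the Y-linked sum in the fit (adjusted p = 0.0661).

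The entry of glucose into metabolism showed large single-gene differences. Slc2a2, which encodes GLUT2, stood at 95.4, 241 and 136 CPM in db/db and 1325, 1215 and 1241 CPM in db/+ and fell by 3.0 ± 0.32 (adjusted p = 0.000284). G6pc2, the islet glucose-6-phosphatase, stood at 1112, 1960.2 and 1615 CPM in db/db and 4855, 4095 and 3369 CPM in db/+ and fell by 1.39 ± 0.20 (adjusted p = 0.000435). Over the 14 tested genes of glucose transport and phosphorylation, 5 rose and 4 fell. The split moved to 4 higher and 5 lower with library totals as the scale, 3 higher and 3 lower without db/+ 3 and 3 higher and 4 lower without db/db 1. Slc5a10, a sodium-coupled sugar transporter, rose by 6.38 ± 0.47 (adjusted p = 3.47e-07), from 0.162, 0.0844 and 0.245 CPM (3 counts or fewer in a library) to 21.0, 13.3 and 9.91 CPM. Tmem27, collectrin, which is on this list as a beta cell membrane protein linked to glucose-stimulated release, rose by 1.64 ± 0.12 (adjusted p = 1.88e-07).

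In glycolysis, 6 of 23 tested genes rose and 10 fell. Instead, there were 3 higher and 11 lower with library totals as the scale, 3 higher and 7 lower with the Y-linked sum in the fit and 4 higher and 9 lower without db/+ 2. The isoforms of the enzyme that makes and breaks fructose 2,6-bisphosphate moved apart: Pfkfb2 stood at 64.9, 81.9 and 76.1 CPM in db/db and 214, 199 and 194 CPM in db/+ and fell by 1.44 ± 0.091 (adjusted p = 6.42e-08), and Pfkfb3 stood at 27.0, 28.0 and 20.7 CPM in db/db and 5.82, 6.33 and 4.57 CPM in db/+ and rose by 2.17 ± 0.16 (adjusted p = 3.47e-07). The db/db libraries lay outside the db/+ range for both. Eno2, a neuroendocrine enolase, fell by 0.74 ± 0.095 (adjusted p = 3.78e-05).

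Mitochondrial genes differed by function. Among 45 tested genes of the TCA cycle, anaplerosis and shuttles, 14 rose and 10 fell. These counts became 3 higher and 13 lower with library totals as the scale and 6 higher and 7 lower with the Y-linked sum in the fit. Pcx, pyruvate carboxylase, which refills the cycle, stood at 41.6, 55.2 and 50.8 CPM in db/db and 149, 189 and 179.9 CPM in db/+ and fell by 1.81 ± 0.12 (adjusted p = 3.29e-07). Gpd2, the mitochondrial enzyme of the glycerol phosphate shuttle, fell by 1.11 ± 0.10 (adjusted p = 2.55e-06), while its cytosolic partner Gpd1 rose by 1.11 ± 0.10 (adjusted p = 2.48e-06). Pdk1, the kinase that switches off pyruvate dehydrogenase, stood at 74.2, 77.9 and 71.3 CPM in db/db and 31.9, 33.5 and 33.0 CPM in db/+ and rose by 1.18 ± 0.090 (adjusted p = 3.76e-07). All 4 genes had groups that did not overlap. Hadh, a fatty acid oxidation enzyme that restrains insulin release in beta cells, stood at 216, 251 and 196 CPM in db/db and 782, 728 and 731 CPM in db/+ and fell by 1.76 ± 0.10 (adjusted p = 2.45e-08). Of the 32 tested genes of fatty acid oxidation and ketogenesis, 3 rose and 7 fell, 31.25% in all beside 40.3% of all genes. The counts were 1 higher and 14 lower with library totals as the scale, 5 higher and 3 lower with the Y-linked sum in the fit, 3 higher and 4 lower without db/db 2 and 4 higher and 4 lower without db/db 3.

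Nuclear genes for subunits of the respiratory chain rose more often than they fell, 27 against 4 of 73. Under other settings they were 9 higher and 6 lower with library totals as the scale, 8 higher and 2 lower with the Y-linked sum in the fit, 16 higher and 4 lower without db/+ 2 and 23 higher and 2 lower without db/+ 3. The number that rose thus moved with the scale and with the Y-linked covariate. Ndufa1 of complex I rose by 2.10 ± 0.18 (adjusted p = 9.81e-06), Ndufc2 rose by 1.22 ± 0.13 (adjusted p = 1.80e-05) and Uqcrh of complex III rose by 0.81 ± 0.092 (adjusted p = 1.27e-05). Cox6a2, the muscle-type subunit of cytochrome oxidase that beta cells also use, went the other way. It stood at 1.37, 4.95 and 2.26 CPM in db/db and 178, 143 and 148 CPM in db/+ and fell by 5.76 ± 0.27 (adjusted p = 6.87e-07), the lowest change among genes of at least 100 CPM, and its db/db libraries did not come near the db/+ range.

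Ion channels fell and rose in similar numbers, 9 and 11 of 41 tested, near the shares of all genes (48.8% passed, beside 40.3%). Alternatives gave 8 higher and 14 lower with library totals as the scale, 11 higher and 6 lower with the acinar mean as a covariate, 11 higher and 6 lower without db/+ 2 and 10 higher and 5 lower without db/db 1. Kcnj11, the pore of the ATP-sensitive potassium channel, stood at 70.9, 76.8 and 78.2 CPM in db/db and 157, 168 and 159 CPM in db/+ and fell by 1.10 ± 0.082 (adjusted p = 2.98e-07). Abcc8, its sulfonylurea receptor subunit, differed by 0.13 ± 0.10 (adjusted p = 0.335) and did not pass. Trpm5, a calcium-activated cation channel that supports glucose-induced spiking, stood at 1.23, 5.70 and 3.02 CPM in db/db and 122, 128 and 117 CPM in db/+ and fell by 5.18 ± 0.28 (adjusted p = 2.10e-06). Kcnj12, an inward rectifier, fell by 5.85 ± 0.22 (adjusted p = 1.14e-09), from 35.6, 42.9 and 35.4 CPM to 0.274, 0.991 and 0.647 CPM, and Kcng3, a modulatory potassium channel subunit, fell by 3.34 ± 0.19 (adjusted p = 2.47e-08). For Trpm5 and Kcnj12 the highest db/db library lay far below the lowest db/+ library. Sodium channels rose: Scn3a rose by 1.98 ± 0.18 (adjusted p = 2.07e-05) and Scn9a rose by 0.58 ± 0.080 (adjusted p = 7.84e-05). Kcnk16, the islet potassium leak channel TALK-1, rose by 0.55 ± 0.071 (adjusted p = 3.75e-05).

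Both incretin receptors fell, as did a fatty acid receptor that raises insulin release. Glp1r, the receptor of the gut hormone GLP-1 and a drug target in diabetes, stood at 127, 157 and 149 CPM in db/db and 277, 389 and 349.9 CPM in db/+ and fell by 1.23 ± 0.13 (adjusted p = 1.38e-05). Gipr, the receptor of the other incretin, stood at 39.8, 43.0 and 45.7 CPM in db/db and 139.7, 167 and 171 CPM in db/+ and fell by 1.89 ± 0.091 (adjusted p = 5.97e-09). Both were lower in all db/db libraries. Ffar1, the long-chain fatty acid receptor, fell by 0.83 ± 0.12 (adjusted p = 0.000193), and Insrr, an alkali-sensing relative of the insulin receptor, fell by 1.82 ± 0.15 (adjusted p = 3.16e-06). In all, 10 of 35 tested receptors fell and 6 rose. Other choices gave 4 higher and 16 lower with library totals as the scale, 4 higher and 11 lower with the Y-linked sum in the fit, 4 higher and 10 lower without db/+ 2, 4 higher and 11 lower without db/+ 3, 4 higher and 11 lower without db/db 1 and 4 higher and 10 lower without db/db 3. Receptors that lower cAMP were found on both sides: Ffar2, the short-chain fatty acid receptor, rose by 1.04 ± 0.13 (adjusted p = 2.20e-05) and Gabbr2, a GABA-B receptor subunit, rose by 1.31 ± 0.14 (adjusted p = 1.01e-05), whereas the adenosine receptor Adora1 fell by 1.84 ± 0.14 (adjusted p = 3.55e-07). Gad1, the enzyme that makes GABA in islets, stood at 14.4, 30.0 and 20.6 CPM in db/db and 182, 171 and 176 CPM in db/+ and fell by 3.02 ± 0.22 (adjusted p = 9.37e-06). Downstream, 12 of 39 tested genes of cAMP production and response rose and 7 fell, 48.7% in all beside 40.3% of all genes. The split moved to 9 higher and 12 lower with library totals as the scale and 7 higher and 6 lower with the Y-linked sum in the fit. Pde3a and Pde4d, which break down cAMP, rose by 1.61 ± 0.16 (adjusted p = 3.98e-06) and 1.36 ± 0.13 (adjusted p = 2.49e-06), and Gnas, the stimulatory G protein, rose by 0.64 ± 0.079 (adjusted p = 2.61e-05). Ppp1r1a, a cAMP-regulated inhibitor of protein phosphatase 1 that is abundant in beta cells, stood at 22.8, 41.1 and 28.0 CPM in db/db and 263, 267 and 252 CPM in db/+ and fell by 3.09 ± 0.17 (adjusted p = 3.43e-07).

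Genes of endocrine progenitors and dedifferentiated beta cells rose, 12 of 28 tested, with 1 lower. This list was drawn up with the largest changes already known, so its count is no independent evidence. Instead, there were 10 higher and 4 lower with library totals as the scale. Aldh1a3, an aldehyde dehydrogenase used as a marker of failing beta cells, stood at 600.3, 432 and 455 CPM in db/db and 2.67, 2.19 and 2.53 CPM in db/+ and rose by 7.64 ± 0.18 (adjusted p = 2.83e-10). Serpina7, the thyroxine-binding globulin, stood at 372, 309.7 and 365 CPM in db/db and 10.6, 7.51 and 6.20 CPM in db/+ and rose by 5.43 ± 0.19 (adjusted p = 1.53e-08). Gc, the vitamin D-binding protein of alpha cells and stressed beta cells, stood at 541, 535 and 550.4 CPM in db/db and 74.6, 62.8 and 59.5 CPM in db/+ and rose by 3.05 ± 0.11 (adjusted p = 7.58e-10). Bambi, a decoy receptor for TGF-beta ligands, rose by 2.04 ± 0.10 (adjusted p = 7.23e-09). No db/+ library reached the db/db range in these 4 genes. Of the 12 that rose, 11 were highest in db/db 1, which is the highest library for 43.8% of all genes that rose. C1qtnf1, a secreted relative of adiponectin, was outside this list and stood at 149, 150.1 and 196 CPM in db/db and 2.67, 1.77 and 1.47 CPM in db/+, a rise of 6.38 ± 0.23 (adjusted p = 2.33e-08).

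Peptide genes that are low in adult islets showed some of the largest ratios. Cck, cholecystokinin, stood at 118.7, 35.6 and 45.4 CPM in db/db and 0.162, 0.4219 and 0.163 CPM in db/+, and Gast, gastrin, at 13.0, 5.95 and 12.8 CPM in db/db and 0.243, 0.253 and 0.0816 CPM in db/+. The db/+ levels come from 1 to 5 counts in a library, so the fitted changes of 8.0 ± 0.83 (adjusted p = 0.000362) and 5.70 ± 0.49 (adjusted p = 1.35e-06) rest on few reads. Csn3, kappa-casein, had 1 count over the 3 db/+ libraries and 450 over the 3 db/db libraries, a ratio of 666 with a 95% counting interval of 118.97 to 26372. Vgf, a neuropeptide precursor of granules, stood at 169, 184 and 239 CPM in db/db and 25.5, 26.4 and 24.3 CPM in db/+ and rose by 2.96 ± 0.14 (adjusted p = 5.78e-08). Npy, neuropeptide Y, fell by 2.57 ± 0.41 (adjusted p = 0.000832), and Edn3, endothelin 3, fell by 1.46 ± 0.24 (adjusted p = 0.000385). Of 16 tested gut and neural peptides, 5 rose and 2 fell. A call was lost for Npy with the Y-linked sum in the fit (adjusted p = 0.0726).

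The genes that beta cells normally keep off, often called disallowed, rose in 11 of 27 tested and fell in 0, with a median of 1.02. These counts became 21 higher and 0 lower with the Y-linked sum in the fit, 6 higher and 0 lower without db/+ 2 and 6 higher and 0 lower without db/+ 3. Oat, ornithine aminotransferase, rose by 1.86 ± 0.15 (adjusted p = 9.38e-07), and Parp3 rose by 2.58 ± 0.41 (adjusted p = 0.000214). The best-known members, Ldha (lactate dehydrogenase A) and Slc16a1 (the lactate transporter MCT1), differed by 0.73 ± 0.36 (adjusted p = 0.144) and 0.61 ± 0.47 (adjusted p = 0.329) and did not pass. Ldha passed with the Y-linked sum in the fit (adjusted p = 0.0314) and Slc16a1 passed with the Y-linked sum in the fit (adjusted p = 0.0340). Markers of non-endocrine cells also rose, as given below, and their part in these changes was not tested. Of the 11 that rose, 10 were highest in db/db 1.

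Genes that fold, modify and dispose of secretory proteins were mostly higher. Of 52 tested genes for chaperones, folding enzymes and disposal in the endoplasmic reticulum (ER), 34 rose, beside 20.6% of all genes, and 3 fell, with a median of 0.55. The counts were 24 higher and 8 lower with library totals as the scale, 32 higher and 6 lower with no filter on low counts, 34 higher and 5 lower by DESeq2, 36 higher and 6 lower with the WT libraries out of the fit, 20 higher and 3 lower with the Y-linked sum in the fit and 35 higher and 5 lower without WT 1. Of the 34 that rose, 29 were highest in db/db 3, the db/db library with 0.0558% of counts in genes that overlap ribosomal RNA, beside 1270 of the 3459 genes that rose in all. The summed CPM of the list was 27920.4, 29771 and 33155 in db/db and 25261, 24246 and 24275 in db/+. With the genes that overlap ribosomal RNA left out of the fit, 6731 of 6768 calls over all genes stayed and 0 reversed. That fit only takes these genes out of the library totals. The part of the ribosomal RNA share as a trait of the libraries was not tested. Ssr4, a translocon subunit, stood at 431, 451 and 469.9 CPM in db/db and 189.9, 157 and 173 CPM in db/+ and rose by 1.38 ± 0.10 (adjusted p = 2.92e-07). Erlec1, a lectin of ER quality control, stood at 133, 118 and 123 CPM in db/db and 42.5, 35.1 and 37.6 CPM in db/+ and rose by 1.70 ± 0.12 (adjusted p = 3.04e-07). P4hb, protein disulfide isomerase, stood at 2416, 2473 and 2764 CPM in db/db and 1359, 1328 and 1326 CPM in db/+ and rose by 0.93 ± 0.090 (adjusted p = 3.13e-06). The groups were apart in all 3. Hspa5, the chaperone BiP and the usual marker of the unfolded protein response, stood at 3553, 4187 and 4742 CPM in db/db and 3780.5, 3317 and 3302 CPM in db/+ and did not pass (0.26 ± 0.13, adjusted p = 0.118). Xbp1, a transcription factor of that response, differed by -0.20 ± 0.083 (adjusted p = 0.0644), and Wfs1, the wolframin gene of beta cell ER calcium handling, by 0.37 ± 0.18 (adjusted p = 0.135). Hspa5 passed with the acinar mean as a covariate and without db/db 1 (adjusted p = 0.0102 and 0.0215), Xbp1 passed with library totals as the scale, by DESeq2 and by limma-voom (adjusted p = 0.00979, 0.0402 and 0.0481) and Wfs1 passed with the WT libraries out of the fit and without WT 1 (adjusted p = 0.0418 and 0.0323). The 3 members that fell were Ero1lb, the oxidase that forms disulfide bonds in proinsulin, which fell by 1.5 ± 0.12 (adjusted p = 4.64e-07), Calr, calreticulin, which fell by 0.49 ± 0.092 (adjusted p = 0.000957), and Sec61g, a channel subunit, which fell by 0.61 ± 0.16 (adjusted p = 0.00764).

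Chaperone genes are classically driven through the ER stress response element, which XBP1 and ATF6 bind and which was searched as CCAAT, 9 bases of any kind and CCACG. Exact matches were sought on either strand, from 250 bases before the gene start to 50 bases after it. They occurred in 0.137% of 27025 mouse promoters and in 9 of the 42 list members with a promoter sequence. Of 29 such members that rose, 4 had a match, and Calr, which fell, had one too. The promoters of Creld2, Derl3, Pdia6 and Calr are shown because they carry the same element while the gene rose or fell. They are RefSeq sequences of GRCm38.p6, printed 5′ to 3′ on the strand of the gene, each ending at the base before the start, with the element in capitals. Creld2 is at chr15:88819396-88819645 on the plus strand, Derl3 at chr10:75893148-75893397 on the plus strand, Pdia6 at chr12:17266339-17266588 on the plus strand and Calr at chr8:84846932-84847181 on the minus strand.
Creld2: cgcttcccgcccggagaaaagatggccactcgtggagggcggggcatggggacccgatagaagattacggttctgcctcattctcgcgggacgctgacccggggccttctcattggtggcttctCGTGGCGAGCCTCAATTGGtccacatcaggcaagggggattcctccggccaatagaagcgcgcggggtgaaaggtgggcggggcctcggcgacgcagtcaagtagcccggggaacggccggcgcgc
Derl3: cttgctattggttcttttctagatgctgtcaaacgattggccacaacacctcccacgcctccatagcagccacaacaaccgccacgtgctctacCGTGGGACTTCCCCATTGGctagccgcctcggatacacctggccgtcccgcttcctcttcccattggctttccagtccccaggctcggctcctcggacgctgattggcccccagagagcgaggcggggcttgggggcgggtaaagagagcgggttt
Pdia6: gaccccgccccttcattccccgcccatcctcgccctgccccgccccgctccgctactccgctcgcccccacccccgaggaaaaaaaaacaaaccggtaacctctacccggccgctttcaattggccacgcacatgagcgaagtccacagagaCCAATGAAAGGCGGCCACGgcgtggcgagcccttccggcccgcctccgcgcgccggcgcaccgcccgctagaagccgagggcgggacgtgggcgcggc
Calr: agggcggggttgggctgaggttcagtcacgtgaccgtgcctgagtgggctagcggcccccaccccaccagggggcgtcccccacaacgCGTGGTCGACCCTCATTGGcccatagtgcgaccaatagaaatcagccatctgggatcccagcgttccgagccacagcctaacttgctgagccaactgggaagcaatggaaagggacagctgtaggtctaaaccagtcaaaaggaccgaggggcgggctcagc
The element begins 126, 156, 98 and 162 bases before the start in that order. In the Pdia6 promoter it reads as spelled, and in the other 3 as its reverse complement. Creld2, an ER stress-inducible secreted protein, stood at 287, 327 and 398 CPM in db/db and 205, 223 and 209 CPM in db/+ and rose by 0.67 ± 0.14 (adjusted p = 0.00284). Derl3, a channel component for misfolded proteins, stood at 107, 104 and 129 CPM in db/db and 65.6, 71.6 and 56.4 CPM in db/+ and rose by 0.81 ± 0.10 (adjusted p = 2.70e-05). Pdia6, a disulfide isomerase, rose by 0.97 ± 0.11 (adjusted p = 9.05e-06), from 590.2, 582 and 561 CPM to 1049, 1083 and 1263 CPM, and Calr stood at 1186, 1111 and 1331 CPM in db/db and 1768, 1685 and 1627 CPM in db/+. Members that share the element thus did not move together, but Calr was the only one of them that fell. Those that neither rose nor fell, Hspa5 among them, did not pass. Calr also passed as higher in db/+ than in WT. A match in these letters is not evidence of binding. The call ended for Creld2 with the Y-linked sum in the fit (adjusted p = 0.171).

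The integrated stress response, the arm of PERK and ATF4 that slows translation and raises amino acid supply, changed in both directions. Of 53 tested, 16 rose and 10 fell, 49.1% in all beside 40.3% of all genes. Under other settings they were 11 higher and 14 lower with library totals as the scale, 14 higher and 6 lower without db/+ 2 and 17 higher and 6 lower without db/db 1. Ddit3, which encodes the pro-apoptotic factor CHOP, stood at 72.7, 119.7 and 118 CPM in db/db and 299, 230.2 and 218 CPM in db/+ and fell by 1.27 ± 0.21 (adjusted p = 0.00214). Atf5 fell by 0.73 ± 0.14 (adjusted p = 0.00178) and Ppp1r15a, the phosphatase subunit GADD34 that ends the response, fell by 0.48 ± 0.085 (adjusted p = 0.000542). Atf4 fell by 0.29 ± 0.094 (adjusted p = 0.0231). Atf3 and Trib3, 2 further targets, differed by -0.30 ± 0.29 (adjusted p = 0.460) and 0.27 ± 0.16 (adjusted p = 0.198). Trib3 passed without db/db 1 (adjusted p = 0.0391). Of enzymes of proline, serine and one-carbon supply, Pycr1 stood at 65.3, 84.0 and 75.9 CPM in db/db and 20.1, 18.9 and 19.2 CPM in db/+ and rose by 1.95 ± 0.10 (adjusted p = 1.21e-08), Psat1 rose by 1.36 ± 0.11 (adjusted p = 5.88e-07) and Mthfd1l rose by 0.90 ± 0.096 (adjusted p = 7.75e-06). Of these, Atf4 without any 1 of db/+ 1, db/+ 2 and db/db 1 (adjusted p = 0.0654, 0.0658 and 0.0886) lost the call.

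Genes that respond to activity within minutes were lower in db/db. Of 35 tested immediate early genes, 18 fell and 6 rose (median -0.38). Alternatives gave 3 higher and 19 lower with library totals as the scale, 9 higher and 19 lower with the acinar mean as a covariate, 4 higher and 17 lower without db/+ 1, 4 higher and 18 lower without db/+ 3 and 4 higher and 17 lower without db/db 3. Npas4, a calcium-dependent factor that is induced by depolarisation of beta cells, stood at 8.78, 9.17 and 11.4 CPM in db/db and 237, 292 and 288 CPM in db/+ and fell by 4.79 ± 0.13 (adjusted p = 8.49e-11). Arc, another activity-regulated gene, stood at 19.3, 19.3 and 21.9 CPM in db/db and 122, 116 and 125 CPM in db/+ and fell by 2.58 ± 0.12 (adjusted p = 5.11e-09). Nr4a1 fell by 1.5 ± 0.16 (adjusted p = 4.44e-05), Fos fell by 0.68 ± 0.11 (adjusted p = 0.000271) and Ier5 fell by 1.01 ± 0.098 (adjusted p = 3.37e-06). In these 5 genes no db/db library reached the db/+ range. Nr4a3, Fosl2 and Ier3 rose, by 1.60 ± 0.42, 0.87 ± 0.20 and 0.82 ± 0.18. The cAMP response element, spelled TGACGTCA, was found in 2.03% of all promoters and in 3.60% of those of tested genes. It was found in 4.62% of those of genes that fell, in 2.71% of those of genes that rose, and in 3 of 24 tested immediate early genes. Fosl2 did not pass with the Y-linked sum in the fit (adjusted p = 0.0639).

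Feedback genes of ERK signalling moved the other way, with 10 of 20 tested higher and 2 lower. Dusp6, the ERK phosphatase, stood at 159, 139 and 184 CPM in db/db and 59.99, 47.8 and 45.2 CPM in db/+ and rose by 1.66 ± 0.13 (adjusted p = 2.48e-06). Spred3, a Ras pathway inhibitor, rose by 1.57 ± 0.15 (adjusted p = 3.33e-06), the ETS factor Etv5 rose by 0.60 ± 0.11 (adjusted p = 0.000749), and Plaur, the urokinase receptor, rose by 2.57 ± 0.30 (adjusted p = 1.70e-05). Fosl1 fell by 2.74 ± 0.33 (adjusted p = 2.42e-05) and the stress kinase phosphatase Dusp10 fell by 0.71 ± 0.20 (adjusted p = 0.0188). A call was lost for Dusp10 with no filter on low counts and with the WT libraries out of the fit (adjusted p = 0.0571 and 0.0624).

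Of 32 tested genes of the leptin receptor and JAK-STAT feedback list, 7 fell, a share near the 19.7% of all genes, and 2 rose. Other choices gave 0 higher and 15 lower with library totals as the scale and 2 higher and 4 lower with the Y-linked sum in the fit. Socs2, a feedback inhibitor of growth hormone and prolactin signalling, stood at 16.6, 17.5 and 13.8 CPM in db/db and 38.0, 37.1 and 20.3 CPM in db/+ and fell by 1.0 ± 0.24 (adjusted p = 0.00861). Stat5b and Stat5a fell by 0.88 ± 0.080 (adjusted p = 1.88e-06) and 0.76 ± 0.14 (adjusted p = 0.000847), and Jak1 fell by 0.41 ± 0.070 (adjusted p = 0.000392). Cish, a STAT5 target, stood at 7.14, 9.04 and 5.06 CPM in db/db and 47.5, 41.2 and 10.8 CPM in db/+. Its fall was 2.24 ± 0.62 (adjusted p = 0.0296). Leprot, transcribed from the same promoter region as Lepr, rose by 0.37 ± 0.11 (adjusted p = 0.0152). In insulin and IGF signalling 8 of 37 rose and 10 fell, 48.6% in all beside 40.3% of all genes, with the insulin receptor Insr at 162, 157 and 145 CPM in db/db and 124, 117 and 103 CPM in db/+, a rise of 0.43 ± 0.091 (adjusted p = 0.00191). The split moved to 3 higher and 17 lower with library totals as the scale, 5 higher and 8 lower without db/+ 3 and 9 higher and 7 lower without db/db 2. The call ended for Cish by limma-voom, with the WT libraries out of the fit, with the Y-linked sum in the fit and without any 1 of db/+ 1, db/+ 2, db/db 1, db/db 2 and db/db 3 (adjusted p from 0.0618 to 0.294), and for Socs2 with the Y-linked sum in the fit (adjusted p = 0.205), and for Leprot with library totals as the scale and without any 1 of db/+ 2 and db/db 1 (adjusted p = 0.438, 0.0649 and 0.0582), and for Insr with library totals as the scale (adjusted p = 0.191).

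Genes of cholesterol synthesis and uptake were mostly lower. Of 27 tested, 17 fell, beside 19.7% of all genes, and 2 rose, with a median of -0.60. Instead, there were 0 higher and 18 lower with library totals as the scale and 0 higher and 12 lower with the Y-linked sum in the fit. Msmo1, a late step of the pathway, stood at 52.1, 55.5 and 52.2 CPM in db/db and 127, 131 and 119.02 CPM in db/+ and fell by 1.24 ± 0.087 (adjusted p = 1.69e-07). Insig1, the sterol-sensitive brake of the pathway, stood at 112, 123 and 118 CPM in db/db and 173, 201 and 188 CPM in db/+ and fell by 0.67 ± 0.079 (adjusted p = 1.82e-05). The groups did not overlap in either gene. The 2 that rose were Dhcr7 (0.59 ± 0.15) and Ebp (0.46 ± 0.14), late steps of the pathway. The sterol regulatory element spelled TCACNCCAC was present in the promoter of 1 of 19 list members, Hmgcs1, which fell by 1.15 ± 0.10 (adjusted p = 2.10e-06), beside 1.44% of all promoters. Of these, Dhcr7 with library totals as the scale and with the Y-linked sum in the fit (adjusted p = 0.0804 and 0.158) and Ebp with library totals as the scale, with the Y-linked sum in the fit and without any 1 of db/+ 2 and db/db 3 (adjusted p = 0.240, 0.386, 0.0814 and 0.124) lost the call.

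Fatty acid synthesis and storage was mixed, with 11 of 34 tested genes higher and 7 lower. These counts became 9 higher and 12 lower with library totals as the scale. Srebf1, the factor that drives lipogenesis, stood at 73.8, 75.4 and 80.2 CPM in db/db and 149, 175 and 159.7 CPM in db/+ and fell by 1.07 ± 0.076 (adjusted p = 1.98e-07). Its targets Fasn, fatty acid synthase, and Scd2, a desaturase, fell by 0.55 ± 0.075 (adjusted p = 6.87e-05) and 1.38 ± 0.13 (adjusted p = 4.71e-06). Lpl, lipoprotein lipase, fell by 1.37 ± 0.13 (adjusted p = 6.60e-06). Lpin2, a phosphatidate phosphatase, rose by 1.41 ± 0.088 (adjusted p = 5.71e-08), Mgll, which releases monoglyceride fatty acids, rose by 1.11 ± 0.16 (adjusted p = 9.08e-05), and Pnpla3 rose by 2.15 ± 0.21 (adjusted p = 3.61e-06), from 2.34, 3.04 and 3.10 CPM to 10.2, 13.0 and 14.4 CPM.

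Antioxidant genes rose in 15 of 39 tested and fell in 5. The counts were 10 higher and 9 lower with library totals as the scale and 10 higher and 4 lower without db/+ 2. Txnip, the glucose-induced thioredoxin inhibitor, stood at 1394, 1458 and 1382 CPM in db/db and 884, 829 and 718 CPM in db/+ and rose by 0.80 ± 0.092 (adjusted p = 1.45e-05). Txn1, thioredoxin, rose by 1.11 ± 0.12 (adjusted p = 7.72e-06), and Prdx4, the peroxiredoxin of the ER, stood at 63.8, 54.4 and 51.1 CPM in db/db and 24.7, 17.7 and 24.7 CPM in db/+ and rose by 1.33 ± 0.15 (adjusted p = 1.47e-05). Nqo1, the NRF2 target quinone reductase, fell by 2.38 ± 0.20 (adjusted p = 7.56e-07), from 15.2, 13.1 and 11.9 CPM to 2.47, 2.73 and 2.48 CPM. Of hypoxia targets, 8 of 23 rose and 5 fell. Under other settings they were 7 higher and 9 lower with library totals as the scale and 8 higher and 1 lower with the Y-linked sum in the fit. Egln3 rose by 3.79 ± 0.49 (adjusted p = 3.90e-05) from a mean of 0.165 CPM in db/+, and Vegfa, the vascular growth factor that beta cells secrete, stood at 208, 276 and 239 CPM in db/db and 525, 548 and 553 CPM in db/+ and fell by 1.17 ± 0.099 (adjusted p = 1.00e-06).

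Interferon-stimulated and MHC class I genes were lower, 19 of 41 tested, with 1 higher. Alternatives gave 3 higher and 6 lower with the Y-linked sum in the fit, 3 higher and 18 lower with the acinar mean as a covariate and 3 higher and 17 lower without db/+ 1. Irf1 stood at 56.0, 72.2 and 53.9 CPM in db/db and 109.6, 122 and 94.9 CPM in db/+ and fell by 0.84 ± 0.12 (adjusted p = 0.000101). H2-Q4, a class I gene whose relatives can share its reads, fell by 0.83 ± 0.11 (adjusted p = 5.74e-05), and Ifit1 fell by 1.91 ± 0.22 (adjusted p = 1.59e-05). B2m, the invariant chain of class I, differed by -0.052 ± 0.35 (adjusted p = 0.925). The 1 gene that rose was Ifi27, by 0.44 ± 0.12. Of 33 tested chemokines, cytokines and NF-kappaB genes, 15 rose and 8 fell. Other choices gave 14 higher and 3 lower with the Y-linked sum in the fit. Tnfrsf11b, osteoprotegerin, stood at 45.0, 32.5 and 37.4 CPM in db/db and 6.39, 4.47 and 4.32 CPM in db/+ and rose by 2.91 ± 0.20 (adjusted p = 2.26e-07), Lcn2, lipocalin 2, rose by 4.93 ± 0.44 (adjusted p = 1.62e-06), and Il6ra, the IL-6 receptor, rose by 0.93 ± 0.086 (adjusted p = 2.36e-06). Nfkbia, the inhibitor that NF-kappaB induces, stood at 80.1, 78.9 and 73.2 CPM in db/db and 146, 207 and 140.0 CPM in db/+ and fell by 1.09 ± 0.14 (adjusted p = 0.00013), and Rela, an NF-kappaB subunit, fell by 0.46 ± 0.093 (adjusted p = 0.00141). Ifi27 did not pass with library totals as the scale (adjusted p = 0.219).

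Cell cycle genes rose in 24 of 38 tested and fell in 1. Mki67, the proliferation antigen, stood at 48.0, 48.1 and 38.9 CPM in db/db and 15.2, 12.2 and 8.89 CPM in db/+ and rose by 1.89 ± 0.19 (adjusted p = 9.72e-06). Top2a, a mitotic topoisomerase, rose by 1.21 ± 0.24 (adjusted p = 0.00208), Bub1b, a spindle checkpoint kinase, rose by 2.02 ± 0.28 (adjusted p = 8.67e-05), and Rrm2, which makes nucleotides for replication, rose by 1.69 ± 0.24 (adjusted p = 8.66e-05). The cell type that carried these transcripts cannot be told from bulk RNA. Pcna was the 1 that fell (-0.48 ± 0.11, adjusted p = 0.00412). Ccnd2, the main cyclin D of beta cells, stood at 478, 617 and 516 CPM in db/db and 1252, 1374 and 1248 CPM in db/+ and fell by 1.27 ± 0.12 (adjusted p = 2.68e-06), all db/db libraries lower. Cdk6 rose by 1.14 ± 0.24 (adjusted p = 0.00194), Cdk4 fell by 0.42 ± 0.076 (adjusted p = 0.000742), Cdkn1a, the p21 inhibitor, rose by 0.67 ± 0.14 (adjusted p = 0.00209), and Cdkn1b, the p27 inhibitor, fell by 0.56 ± 0.078 (adjusted p = 8.56e-05). Of 36 tested p53 targets and apoptosis genes, 11 rose, Ccng1 (0.66 ± 0.067) and Zmat3 (0.67 ± 0.13) among them, and 4 fell, with Gadd45b lowest of those named (-1.87 ± 0.14). The split moved to 6 higher and 7 lower with library totals as the scale and 8 higher and 2 lower with the Y-linked sum in the fit. A call was lost for Pcna with the Y-linked sum in the fit (adjusted p = 0.386).

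Genes of other islet and pancreatic cells moved with genotype, and their part in the results above was tested only for the acinar level. The lists of connective tissue were nearly all one-sided. Of 51 tested genes of collagens and matrix, 39 rose and none fell, with a median of 2.24. Instead, there were 26 higher and 0 lower without db/+ 3. Col1a1, the chain of fibrillar collagen I, stood at 167, 32.7 and 118 CPM in db/db and 6.71, 1.69 and 2.12 CPM in db/+ and rose by 4.90 ± 0.85 (adjusted p = 0.00475). Col1a2 and Col3a1 rose by 3.77 ± 0.66 (adjusted p = 0.00511) and 3.39 ± 0.85 (adjusted p = 0.0210). Col4a1, of the basement membrane around islet vessels, rose by 0.56 ± 0.095 (adjusted p = 0.000425), and Thbs1, thrombospondin 1, rose by 1.72 ± 0.12 (adjusted p = 4.77e-07). The matrix genes that rose were highest in db/db 1 in 33 of 39 cases, beside 43.8% of all genes that rose. The call ended for Col3a1 with the acinar mean as a covariate and without any 1 of db/+ 2, db/+ 3 and db/db 1 (adjusted p = 0.0618, 0.0655, 0.0750 and 0.0506).

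The markers of stellate cells, pericytes and fibroblasts rose in 12 of 22 tested and fell in none. Of the 12, 11 were highest in db/db 1, beside 43.8% of all genes that rose. The summed CPM of this list was 1133, 769 and 830.3 in db/db and 400.3, 328 and 315 in db/+. Rgs5, a pericyte marker, stood at 501, 397 and 414 CPM in db/db and 189.5, 164 and 160.0 CPM in db/+ and rose by 1.35 ± 0.11 (adjusted p = 6.59e-07). Acta2, smooth muscle actin of contractile and activated stellate cells, rose by 2.35 ± 0.30 (adjusted p = 0.000188), and Notch3 rose by 1.79 ± 0.16 (adjusted p = 4.21e-06). Pdgfrb rose by 1.29 ± 0.29 (adjusted p = 0.00922). All of these markers were detected in db/+ as well, at lower levels. Endothelial markers rose in 18 of 29 and fell in 2. These counts became 12 higher and 4 lower with library totals as the scale and 11 higher and 2 lower without db/+ 3. Of the 18, 16 were highest in db/db 1, beside 43.8% of all genes that rose, and the summed CPM of the list was 1843, 1482 and 1448 in db/db and 1565, 1491 and 1454 in db/+, with db/db 1 alone above the db/+ range. Pecam1 rose by 0.60 ± 0.17 (adjusted p = 0.0209), Cdh5 rose by 0.97 ± 0.14 (adjusted p = 0.000103) and Ptprb rose by 1.47 ± 0.17 (adjusted p = 0.000107), while Esm1, a gene of VEGF-stimulated tip cells, fell by 0.96 ± 0.13 (adjusted p = 5.77e-05). Of these, Pecam1 with the WT libraries out of the fit and without db/+ 3 (adjusted p = 0.0545 and 0.0705) lost the call.

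Macrophage and myeloid markers rose in 11 of 29 tested and fell in 0. The counts were 19 higher and 0 lower with the Y-linked sum in the fit, 7 higher and 0 lower without db/+ 2, 6 higher and 0 lower without db/+ 3 and 7 higher and 4 lower without db/db 1. Of the 11 that rose, 9 were highest in db/db 1, beside 43.8% of all genes that rose. The summed CPM of the list was 789, 428 and 348 in db/db and 425, 460 and 335 in db/+, with db/db 1 alone above the db/+ range. C1qa, of the complement made by tissue macrophages, stood at 73.7, 68.5 and 68.8 CPM in db/db and 50.4, 38.1 and 36.4 CPM in db/+ and rose by 0.75 ± 0.11 (adjusted p = 0.000111). Csf1r, the receptor for their growth factor, rose by 0.60 ± 0.18 (adjusted p = 0.0175), and Adgre1, the F4/80 antigen, differed by 0.33 ± 0.23 (adjusted p = 0.269) and did not pass. Adgre1 passed with the Y-linked sum in the fit (adjusted p = 0.0289). None of the 9 tested lymphocyte markers passed. Cd44, an adhesion receptor of leukocytes, stromal and epithelial cells alike, stood at 148, 133 and 138 CPM in db/db and 15.8, 13.5 and 9.54 CPM in db/+ and rose by 3.43 ± 0.14 (adjusted p = 2.54e-09). Csf1r did not pass with library totals as the scale and without any 1 of db/+ 3 and db/db 1 (adjusted p = 0.0839, 0.0721 and 0.0697).

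Exocrine genes gave 2 different pictures. The acinar enzymes other than trypsinogens varied between libraries of 1 group and mostly did not pass: 2 of 33 rose and 2 fell. Under other settings they were 5 higher and 2 lower by DESeq2, 6 higher and 0 lower with the Y-linked sum in the fit, 8 higher and 13 lower with the acinar mean as a covariate, 4 higher and 1 lower without db/+ 3 and 2 higher and 0 lower without db/db 3. Cpa1, carboxypeptidase A1, stood at 5579, 1857 and 2017 CPM in db/db and 1593, 2129 and 3746 CPM in db/+, a difference of 0.34 ± 0.58 (adjusted p = 0.682), and Cela2a, an elastase, at 3731, 1325 and 1473 CPM in db/db and 1211, 1495 and 2962 CPM in db/+, a difference of 0.20 ± 0.55 (adjusted p = 0.802). Their ranges overlapped, with db/db 1 highest in db/db. Trypsinogens behaved otherwise, with 8 of 10 tested higher and 0 lower. Prss1 stood at 2279.8, 511 and 622 CPM in db/db and 0.647, 0.506 and 0.408 CPM in db/+ and rose by 11.06 ± 1.02 (adjusted p = 0.000286), and Prss3 stood at 1382, 295 and 398 CPM in db/db and 1.29, 1.69 and 1.39 CPM in db/+ and rose by 8.88 ± 0.93 (adjusted p = 0.000527). Prss2, chosen after its values were seen, stood at 2507, 1061 and 1114 CPM in db/db and 1053, 1228 and 2279 CPM in db/+, a difference of 0.038 ± 0.49 (adjusted p = 0.963). Against acinar content, Prss1 amounted to 409, 275 and 308 CPM per 1000 CPM of Cpa1 in db/db and 0.406, 0.238 and 0.109 in db/+. It was 0.369, 1.13 and 0.487 in WT. The ratio to Cpa1 separated the groups, as Prss1 alone did and Cpa1 alone did not. Prss1 differed so much more than Cpa1 that dividing by Cpa1 could not have joined the groups. The ratio is therefore a description. Trypsinogen genes are near-identical copies within the T cell receptor beta locus, so reads may be assigned to the wrong copy and the change of a single copy is uncertain. Spink1, the trypsin inhibitor of acinar cells, stood at 391, 92.3 and 118 CPM in db/db and 12.2, 13.2 and 28.3 CPM in db/+ and rose by 3.48 ± 0.69 (adjusted p = 0.00853).

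**Figure D3:**
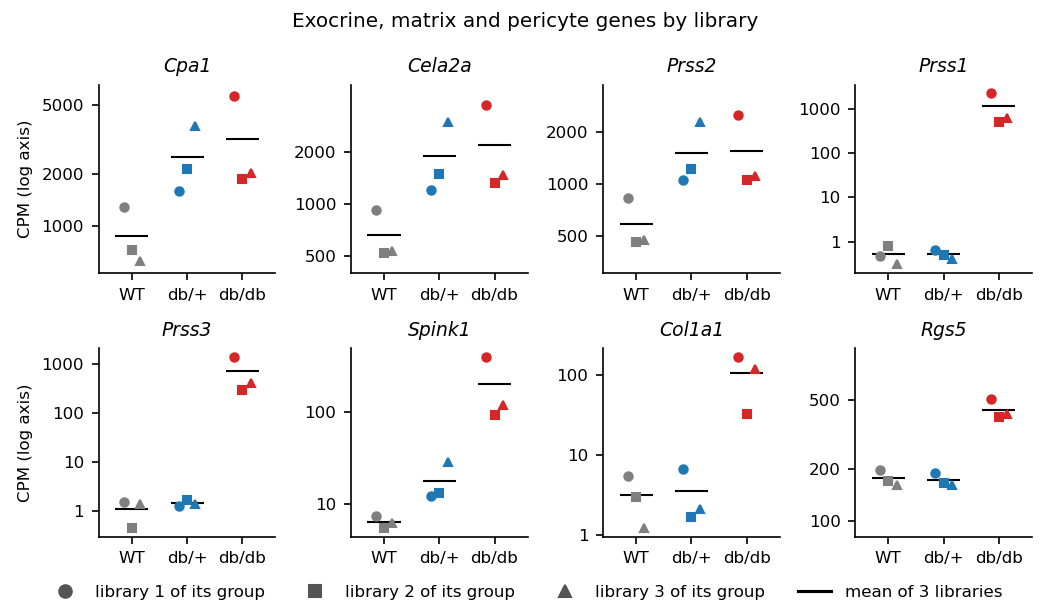
CPM on a log axis for 8 genes in WT (grey), db/+ (blue) and db/db (red); circles, squares and triangles are libraries 1, 2 and 3 of a group and the black line is the mean of 3. Cpa1, Cela2a and Prss2 overlap between db/db and db/+, while Prss1, Prss3, Spink1, Col1a1 and Rgs5 are higher in all 3 db/db libraries.

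The Reg genes, which acinar and damaged islet cells secrete, rose in 4 of 6 tested. Reg3b stood at 60.7, 37.7 and 57.4 CPM in db/db and 2.43, 2.87 and 3.83 CPM in db/+ and rose by 4.09 ± 0.45 (adjusted p = 0.000314), and Reg3g and Reg3a rose by 5.77 ± 0.33 (adjusted p = 2.45e-08) and 4.07 ± 0.72 (adjusted p = 0.00162) from means of 0.192 and 0.438 CPM. Duct markers rose in 14 of 24 and fell in 1. Prom1 stood at 263, 309 and 283 CPM in db/db and 89.7, 88.8 and 86.1 CPM in db/+ and rose by 1.69 ± 0.080 (adjusted p = 5.11e-09), Krt7 rose by 1.09 ± 0.086 (adjusted p = 4.90e-07), Sox9, a progenitor and duct factor, rose by 2.14 ± 0.57 (adjusted p = 0.0127), and Cftr, the chloride channel of ducts, rose by 2.10 ± 0.37 (adjusted p = 0.000597). Krt19, the keratin that defines ducts, stood at 24.2, 5.45 and 7.54 CPM in db/db and 3.40, 4.72 and 3.43 CPM in db/+, a rise of 1.67 ± 0.53 (adjusted p = 0.0372) that db/db 1 led. A call was lost for Krt19 with library totals as the scale, with no filter on low counts, by limma-voom, with the WT libraries out of the fit, with the acinar mean as a covariate and without any 1 of WT 1, WT 2, WT 3, db/+ 1, db/+ 2 and db/+ 3 (adjusted p from 0.0532 to 0.110) and Sox9 without db/+ 1 (adjusted p = 0.0504).

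Alpha cell markers fell in 10 of 21 tested and rose in 5. Slc7a2, a cationic amino acid transporter, stood at 249, 322 and 265 CPM in db/db and 695, 659 and 631 CPM in db/+ and fell by 1.25 ± 0.13 (adjusted p = 7.18e-06), and Sphkap, a kinase anchor, fell by 1.67 ± 0.18 (adjusted p = 5.29e-05). Ttr, transthyretin, rose by 0.88 ± 0.18 (adjusted p = 0.00286), and Slc38a5, the glutamine transporter that alpha cells raise when they proliferate, rose by 1.37 ± 0.23 (adjusted p = 0.00103). Markers of the same cell type thus changed in both directions. Delta and PP cell markers rose and fell in equal number, 3 and 3 of 15, or 40% in all beside 40.3% of all genes. Alternatives gave 1 higher and 3 lower without db/db 3. The call ended for Ttr with the Y-linked sum in the fit (adjusted p = 0.128).

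**Figure D4:**
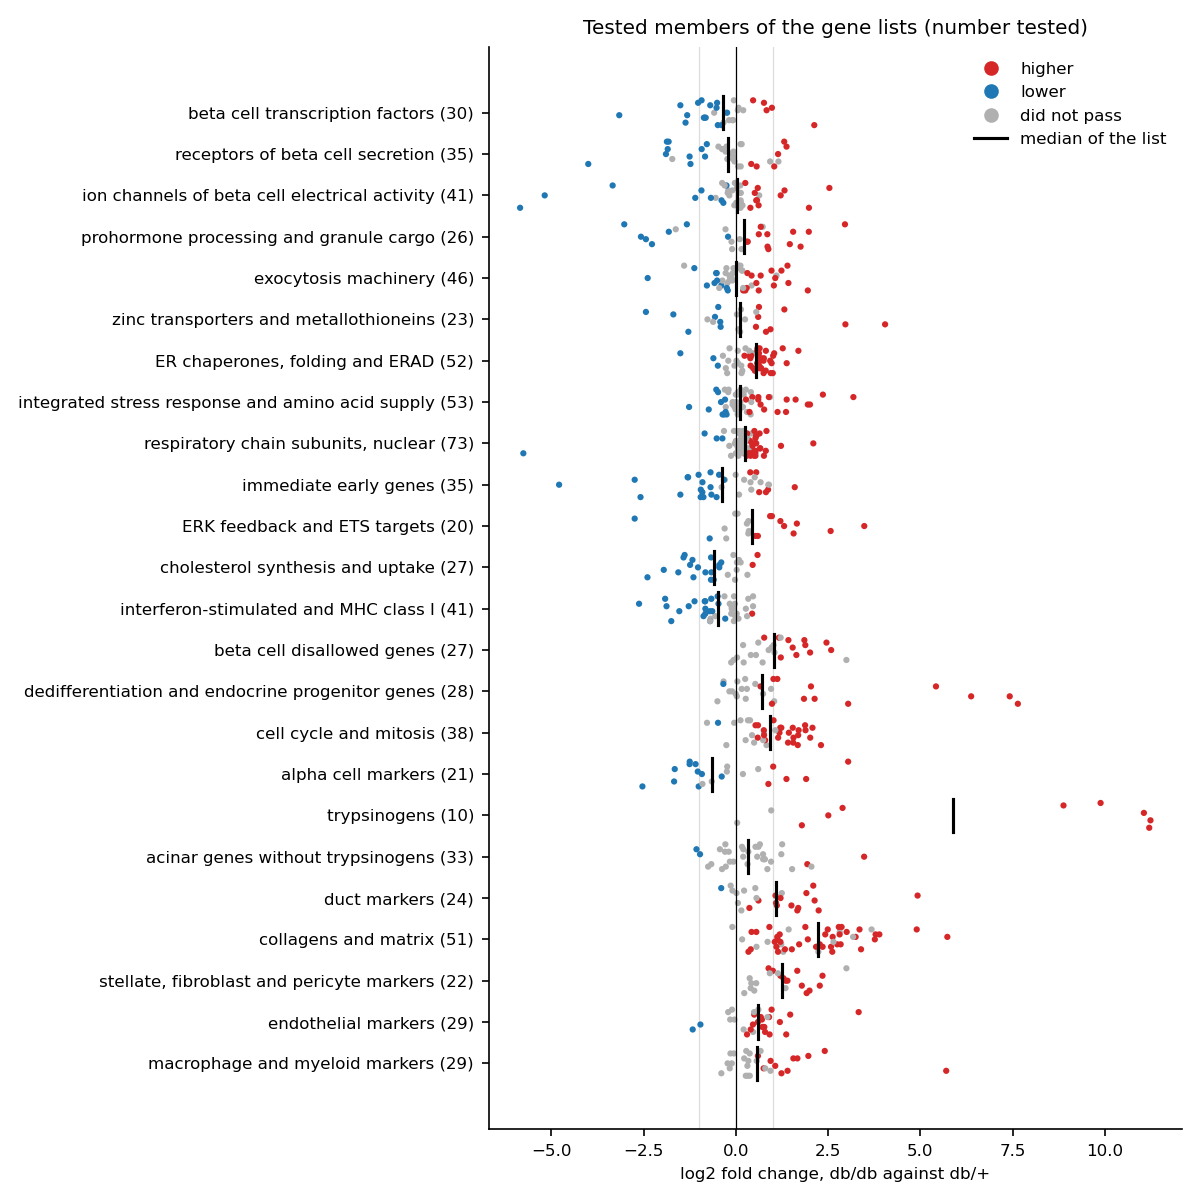
Log2 fold change of db/db against db/+ (horizontal axis) for each tested member of 24 gene lists (vertical axis, number tested in brackets). Red points rose, blue points fell, grey points did not pass, and the black bar is the median of the list; the matrix and trypsinogen lists lie furthest to the right and cholesterol synthesis, immediate early and interferon lists lie left of 0.

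With the title letter as a covariate, which left fewer calls in most lists, the split between higher and lower turned in 6 lists: to 4 and 6 for ion channels, 6 and 7 for exocytosis, 5 and 6 for fatty acid synthesis, 0 and 1 for proteasome subunits, 9 and 3 for lysosome and autophagy genes, and 3 and 5 for contact genes.

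Contact genes changed in both directions. Gjd2, connexin 36 of islet gap junctions, stood at 122, 158 and 135 CPM in db/db and 433, 449 and 421 CPM in db/+ and fell by 1.65 ± 0.096 (adjusted p = 2.96e-08). Cdh7, a cadherin, fell by 3.64 ± 0.21 (adjusted p = 3.28e-08), and Epha7, an ephrin receptor, fell by 1.94 ± 0.18 (adjusted p = 2.08e-06), while Cdh13 rose by 2.19 ± 0.30 (adjusted p = 6.97e-05). In all, 8 of 21 tested contact genes rose and 7 fell. Other choices gave 3 higher and 9 lower with library totals as the scale, 5 higher and 4 lower with the Y-linked sum in the fit, 5 higher and 6 lower without db/+ 2, 4 higher and 6 lower without db/+ 3 and 5 higher and 7 lower without db/db 1. In the TGF-beta, BMP and Id list 14 of 32 rose, 11 of them highest in db/db 1 (beside 43.8% of all genes that rose), and 4 fell. Its ligands rose: Inhbb, the activin B subunit, stood at 36.1, 34.1 and 31.6 CPM in db/db and 6.95, 4.81 and 3.75 CPM in db/+ and rose by 2.71 ± 0.19 (adjusted p = 1.76e-07), Inhba rose by 2.85 ± 0.26 (adjusted p = 1.99e-06) and Tgfb3 rose by 2.12 ± 0.22 (adjusted p = 6.12e-06). The receptors Tgfbr1 and Acvr1c and the transducer Smad2 fell, by 0.84 ± 0.077 (adjusted p = 2.10e-06), 1.44 ± 0.20 (adjusted p = 0.000103) and 0.75 ± 0.11 (adjusted p = 0.00017).

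Clock genes fell in 7 of 19 tested and rose in 1. The split moved to 3 higher and 7 lower with the WT libraries out of the fit. Dbp, an output gene, stood at 11.66, 13.0 and 13.7 CPM in db/db and 33.1, 26.8 and 33.6 CPM in db/+ and fell by 1.28 ± 0.13 (adjusted p = 5.64e-06), Per1 fell by 0.88 ± 0.13 (adjusted p = 0.000385), Arntl, the BMAL1 gene, fell by 0.60 ± 0.14 (adjusted p = 0.00387), and Clock fell by 0.47 ± 0.069 (adjusted p = 0.000123). Among 32 tested imprinted genes 5 rose and 6 fell, 34.4% in all beside 40.3% of all genes. Instead, there were 4 higher and 11 lower with library totals as the scale and 7 higher and 6 lower without WT 3. Nnat, neuronatin, a paternally expressed gene that helps proinsulin processing, stood at 4.94, 5.70 and 4.09 CPM in db/db and 44.7, 44.1 and 44.7 CPM in db/+ and fell by 3.19 ± 0.23 (adjusted p = 2.08e-06). Inpp5f, a phosphatase gene with an imprinted isoform, stood at 167, 155 and 182 CPM in db/db and 45.7, 43.5 and 43.6 CPM in db/+ and rose by 1.92 ± 0.089 (adjusted p = 4.64e-09). Dlk1 rose by 2.64 ± 0.49 (adjusted p = 0.000847) from a mean of 0.192 CPM. Of 13 tested genes of serotonin and pregnancy, 6 rose and 3 fell, with Maob, which degrades monoamines, at 20.0, 32.5 and 28.7 CPM in db/db and 144, 155 and 141 CPM in db/+, a fall of 2.43 ± 0.13 (adjusted p = 6.53e-08). These counts became 4 higher and 4 lower with library totals as the scale, 4 higher and 4 lower with no filter on low counts, 2 higher and 2 lower with the Y-linked sum in the fit, 4 higher and 2 lower without db/+ 1, 4 higher and 2 lower without db/+ 2, 3 higher and 3 lower without db/+ 3, 4 higher and 2 lower without db/db 2 and 4 higher and 2 lower without db/db 3.

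Of 78 tested cytosolic ribosomal protein genes, 34 rose and 8 fell, and their many pseudogenes can take reads. The counts were 19 higher and 14 lower with library totals as the scale and 24 higher and 4 lower with the Y-linked sum in the fit. Rplp0 rose by 1.0 ± 0.077 (adjusted p = 4.13e-07), and Rpl10 fell by 1.05 ± 0.11 (adjusted p = 4.71e-06). Proteasome subunits rose in 13 of 40 and fell in 1, and the direction of the calls turned with the scale. The list median was 0.19 with TMM factors, beside 0.01 over all tested genes. It was -0.037 with library totals, beside -0.22 over all tested genes. Under other settings proteasome subunits were 0 higher and 6 lower with library totals as the scale, 1 higher and 0 lower with the Y-linked sum in the fit, 5 higher and 1 lower without db/+ 2 and 5 higher and 1 lower without db/db 3. Lysosome and autophagy genes rose in 12 of 48 and fell in 16. Wipi1, an autophagosome protein, rose by 1.47 ± 0.19 (adjusted p = 0.000226), and Lamp2, a lysosomal membrane protein, fell by 0.57 ± 0.071 (adjusted p = 2.66e-05). Alternatives gave 6 higher and 22 lower with library totals as the scale, 7 higher and 10 lower with the Y-linked sum in the fit and 12 higher and 11 lower without db/db 1.

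Fam151a and Tmem215 were among the 10 lowest changes of genes of at least 100 CPM and belong to none of the lists above. Fam151a stood at 4.67, 27.6 and 20.0 CPM in db/db and 218, 209 and 215 CPM in db/+ and fell by 3.60 ± 0.46 (adjusted p = 0.00125). It lies 5 Mb or less from Lepr and overlaps Mroh7 and Acot11. Tmem215 stood at 22.6, 54.6 and 48.2 CPM in db/db and 292, 315 and 322 CPM in db/+ and fell by 2.88 ± 0.28 (adjusted p = 0.000144). All db/db libraries were below the db/+ range in both.

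Heterozygous islets were also set against wild-type islets, the other possible control. In the same fit 7018 genes (41.7%) differed between db/db and WT, 3670 (21.8%) higher and 3348 (19.9%) lower. The count of some lists moved with the control. Against WT, 18 of 33 acinar genes were higher and 0 lower (2 and 2 against db/+). Genes of the integrated stress response were higher in 27 and lower in 4 (16 and 10 against db/+), and interferon-stimulated and class I genes in 4 and 9 (1 and 19 against db/+). The immediate early genes had a median of 0.070 against WT and -0.38 against db/+. The WT and db/+ libraries also differed beyond the label. Genes that overlap ribosomal RNA took 2.18, 2.58 and 1.89% of the counts in WT and at most 0.0237% in db/+. The mean log2 level of the acinar genes was 6.42, 5.71 and 5.65 in WT and 6.62, 6.95 and 7.73 in db/+. With these ribosomal RNA-overlapping genes left out of the fit, 230 genes passed between db/+ and WT instead of 240. The part of the ribosomal RNA share as a trait of the libraries was not tested. Between db/+ and WT, 240 genes (1.43%) differed, 102 (0.606%) higher and 138 (0.820%) lower in db/+. This count moved with single libraries: it was 23, 27 and 58 without db/+ 1, 2 and 3, 44 without WT 3, 79 and 106 without db/db 2 and 3, and 430 without db/db 1, which enters it through the shared spread. It was 768 with no filter on low counts, 641 by DESeq2, 407 with the Y-linked sum in the fit, 98 with the acinar mean as a covariate and 45 with the title letter as a covariate. The contrast is also the test of whether db/db against db/+ differs from db/db against WT, which share the db/db libraries. Of the 240, 146 (0.868% of all tested) also passed in db/db against db/+. The largest patterns among these were genes at which db/+ alone stood apart: 41 were above WT in db/+ and lower again in db/db, and 46 were below WT in db/+ and higher again in db/db, with no difference between db/db and WT that passed. Both contrasts hold the same db/+ libraries, with opposite sign, so any shift of these libraries yields such patterns. The counts are therefore descriptions. Of the 8 genes described next, 1 to 7 kept their call in db/+ against WT with a library left out, and none changed direction (adjusted p up to 0.201 where the call ended). Calls also ended with the acinar mean as a covariate (Nfkbia, Muc4, Tnr and Pfkfb3), with library totals as the scale (Ddit3 and Fos), by limma-voom (Tnr and Pfkfb3), with the Y-linked sum in the fit (Tnr), with the title letter as a covariate (7 of 8) and in the test against a 1.5-fold change (8 of 8).

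Ddit3, Nfkbia, Fos and Irf1 had the first pattern. Ddit3 stood at 106, 78.7 and 86.4 CPM in WT, and db/+ exceeded WT by 1.46 ± 0.21 (adjusted p = 0.0362). Its fall in db/db against db/+ came with a difference from WT of 0.19 ± 0.22 (adjusted p = 0.504). Nfkbia stood at 88.7, 72.4 and 83.7 CPM in WT, and db/+ exceeded WT by 1.01 ± 0.14 (adjusted p = 0.0110). Fos exceeded WT in db/+ by 0.53 ± 0.11 (adjusted p = 0.0412), and Irf1 by 0.61 ± 0.11 (adjusted p = 0.0362). H2-Q4, Calr and Sst, given above as falls in db/db against db/+, also passed as higher in db/+ than in WT. Their calls against WT under the alternatives are not given. By list, db/+ was higher than WT in 9 of 53 genes of the integrated stress response, 7 of 35 immediate early genes, 6 of 52 ER genes and 4 of 41 interferon-stimulated genes.

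Hspg2 and Tnr had the second pattern, and Muc4 and Pfkfb3 rose past WT. Muc4, a membrane mucin, stood at 58.6, 66.6 and 53.1 CPM in db/db and 15.9, 16.1 and 15.8 CPM in db/+, beside 28.7, 30.4 and 49.3 CPM in WT, with db/+ against WT at -1.17 ± 0.19 (adjusted p = 0.0335). Hspg2, perlecan of the basement membrane, differed in db/+ by -1.05 ± 0.17 (adjusted p = 0.0363) from WT, and rose in db/db by 1.10 ± 0.17 (adjusted p = 0.000935). Tnr, tenascin R, gave -0.80 ± 0.16 (adjusted p = 0.0444) and 0.71 ± 0.16 (adjusted p = 0.00567), and Pfkfb3 gave -0.76 ± 0.17 (adjusted p = 0.0477) beside its rise in db/db. The db/+ level of Hspg2 and Tnr was thus below that of both other groups. Of these, Tnr with the Y-linked sum in the fit (adjusted p = 0.119) lost the call.

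**Figure D5:**
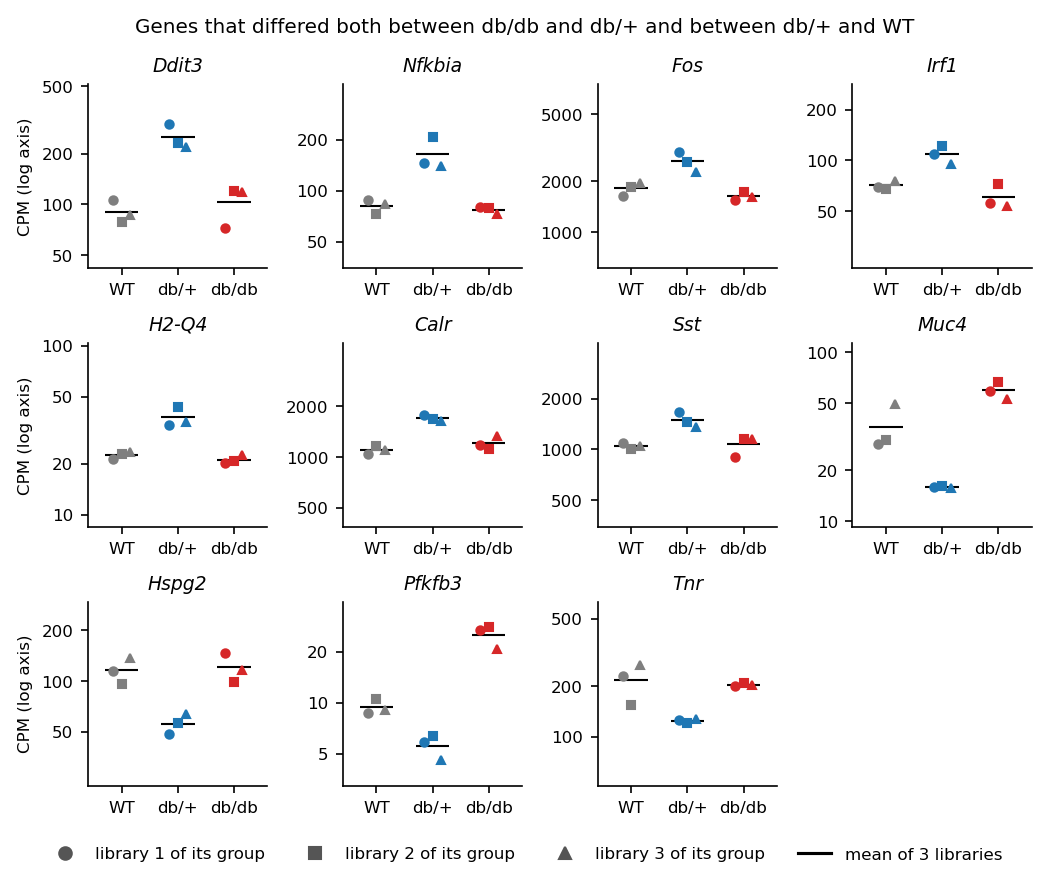
CPM on a log axis for 11 genes that passed both in db/db against db/+ and in db/+ against WT; grey is WT, blue db/+, red db/db, symbols are libraries 1, 2 and 3 of a group and the black line is the mean of 3. For Ddit3, Nfkbia, Fos, Irf1, H2-Q4, Calr and Sst the db/+ mean is the highest of the 3 groups, and for Muc4, Hspg2, Pfkfb3 and Tnr it is the lowest.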

How the data were processed

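Read counts per gene symbol, as the authors deposited them in 1 table without normalisation, were used for all 9 libraries; 1 column matched no sample and was not used. Trizol was used to extract RNA and ribosomal RNA was removed before library construction, per the labels' protocols. Per the submitters' processing notes, reads were processed with bcl2fastq 2.20.0.422 and TopHat2 2.0.14 on mm10. No source used here names the counting program or annotation. Of 52459 symbols 29854 had counts, and 16826 passed edgeR's filterByExpr. Total counts were 8860024 to 11734886, so 3 counts, the limit that a count of 0 allows, came to 0.238 to 0.412 CPM; intervals cover counting error only. All 9 libraries were fitted together by group with edgeR 4.0.16 (TMM factors, robust quasi-likelihood F test, 6 residual degrees of freedom, R 4.3.3); p-values were adjusted over all tested genes by Benjamini-Hochberg, with a threshold of 0.05. The code was tested on simulated data. Positions and promoters are RefSeq's (89.9% of tested symbols matched). Alternatives were other scalings, filters and tools (DESeq2 1.42.0, limma 3.58.1), covariates and each library left out.

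Genes were named by rule: list anchors and up to 3 members per direction with the smallest adjusted p; the 10 highest and 10 lowest changes at 100 CPM or more without overlap of the groups (predicted and Rik symbols, sex-linked and ribosomal RNA-overlapping genes left out); the 5 highest and 5 lowest changes of db/+ against WT at 10 CPM or more among genes that passed both contrasts; and list members that hold a motif. Of these, the text describes a part, and some genes and an allele of the strain are not reported here. Members and lists were chosen with earlier results of these data known.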

Additional observations from a re-analysis of the deposited data

How the results depend on the processing

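No paired analysis was possible because the labels carry no replicate numbers. Of 227 genes named as changed, 0 reversed under any alternative, 167 passed the test against a 1.5-fold change, 168 passed with the title letter as a covariate, and 212 or more passed under each other alternative (224 of 224 where acinar genes were left out); apart from these 2 alternatives, settings that ended a call stand beside it above. The test against a 1.5-fold change is stricter by construction: it called 1663 genes (1062 higher, 601 lower) and 0 between db/+ and WT. The title letter as a covariate left 2033 (1007 higher, 1026 lower) and 45 between db/+ and WT, and reversed 65 of the 6773. Library totals as the scale gave 2011 higher and 5265 lower. The Y-linked covariate left 4403 (1899 lower), kept 3767 of the 6773 and gave 407 between db/+ and WT. That contrast called 768 genes with no filter on low counts, 641 by DESeq2, 98 with the acinar covariate, and 23 to 430 with a library left out. With a library left out, db/db against db/+ called 5441 to 6880. The cause was not tested.

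Differences that missed the threshold in the report and changed sign are given next. With library totals these were Abcc8 (-0.093), Cela2a (-0.062), Ins2 (-0.19), Pcsk2 (-0.065) and Prss2 (-0.22). With the Y-linked covariate they were Abcc8 (-0.085), B2m (0.78), Hspa5 (-0.0067), Ins2 (-0.13), Pcsk2 (-0.14) and Trib3 (-0.16). With the title letter they were B2m (0.46), Ins2 (-0.094) and Ppy (0.10). With the acinar covariate they were Cela2a (-0.29), Cpa1 (-0.22) and Prss2 (-0.39), of which Cela2a and Prss2 passed as falls (adjusted p = 0.0133 and 0.00210), and Prss2 gave -0.0022 with no filter. With a library left out, the changes ran from -0.11 to 1.54 for Lepr, -0.031 to 0.12 for Ins2, -0.36 to 0.76 for Cpa1, -0.43 to 0.68 for Cela2a, -0.48 to 0.45 for Prss2 and -0.46 to 0.25 for B2m.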

Other observations

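A further pair of gene groups was drawn up after their values were seen, so their counts are descriptions only. The first is the cytosolic heat shock chaperones, which refold proteins in the cytosol under the factor HSF1. Of 21 tested members, 19 fell and none rose, with a median of -0.78, beside 19.7% of all genes lower. Dnajb1, a co-chaperone of HSP70, stood at 207, 258 and 129 CPM in db/db and 795, 1172 and 979 CPM in db/+ and fell by 2.31 ± 0.27 (adjusted p = 0.000334). Dnaja1, another J-domain protein, fell by 2.2 ± 0.26 (adjusted p = 0.000288), and Hsph1, a nucleotide exchange factor, fell by 1.46 ± 0.23 (adjusted p = 0.00113). Hspa8, the constitutive HSP70, stood at 273, 307 and 241 CPM in db/db and 459, 611 and 630.2 CPM in db/+ and fell by 1.05 ± 0.13 (adjusted p = 5.87e-05), and Hsp90aa1, the inducible HSP90, fell by 1.11 ± 0.16 (adjusted p = 0.00038). The inducible HSP70 genes Hspa1a and Hspa1b are near-identical copies that can share reads. They fell by 2.28 ± 0.29 and 2.38 ± 0.38 (adjusted p = 0.000661 and 0.00274). Chaperones of the ER, described above, were mostly higher in the same libraries. Over the other scalings, filters, tools and covariates and with a library left out, 14 to 19 were lower and 0 to 1 higher, apart from the title letter as a covariate (3 lower, 0 higher) and the test against a 1.5-fold change (9 lower). The 14 came with the Y-linked sum in the fit. In WT, Dnajb1 stood at 829, 656 and 606 CPM, and 1 of the 21 genes passed as higher in db/+ than in WT. The median of the list was 0.41 in db/+ against WT, beside 0.016 over all tested genes, so db/+ itself tended to stand above WT. In db/db against WT, each member named here also passed as lower, from Dnaja1 (-1.89) to Hsp90aa1 (-0.79). Some other members did not pass against WT or passed as higher. Hsph1 did not pass with the Y-linked sum in the fit (adjusted p = 0.0615), nor did Hspa1b with the Y-linked sum in the fit (adjusted p = 0.0799).

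The second group is the removal of signal peptides and transport from the ER to the Golgi. Of 50 tested members, 37 rose and none fell, with a median of 0.43, beside 20.6% of all genes higher. Kdelr3, a receptor that returns chaperones to the ER, stood at 59.97, 60.5 and 70.4 CPM in db/db and 6.14, 5.65 and 7.50 CPM in db/+ and rose by 3.30 ± 0.14 (adjusted p = 2.28e-09). Every db/db library was far above the db/+ range. Sec11c, the catalytic subunit of signal peptidase, rose by 1.71 ± 0.086 (adjusted p = 9.18e-09), and Spcs1, its partner, rose by 0.97 ± 0.11 (adjusted p = 1.30e-05). The cargo receptors Tmed3 and Tmed6 rose by 1.67 ± 0.11 (adjusted p = 8.69e-08) and 1.74 ± 0.22 (adjusted p = 0.000158). Over the other scalings, filters, tools and covariates and with a library left out, 12 to 39 were higher and 0 to 1 lower, apart from the title letter as a covariate (8 higher, 0 lower) and the test against a 1.5-fold change (6 higher). The lowest counts came with library totals as the scale (12 higher) and with the Y-linked sum in the fit (15 higher).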
